A study of Mus musculus with 10 samples.

Results

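Isl1 Ebf1 cells are neurons of striatal type that were found in single-cell RNA-seq libraries of the mouse cortex at E16.5. A cell barcode was kept if it held at least 1000 unique molecular identifiers (UMIs, each counted as 1 captured RNA molecule) and at most 10% mitochondrial UMIs. A kept cell was a member if at least 3 of the 5 genes Isl1, Ebf1, Zfp503, Rxrg and Rarb were detected, with Isl1 or Ebf1 among them. It also had to hold at most 2 UMIs of Neurod6 (a gene of excitatory cortical neurons), no UMI of Lhx6 (a gene of interneurons from the medial ganglionic eminence, MGE) and at most 1 UMI of Col1a1 and Rgs5 together (genes of fibroblasts and pericytes). The rule found 1676 members among 65779 kept cells. There were 184, 174 and 195 members in WT1, WT2 and WT3, 133, 152, 155 and 236 in Het1 to Het4, and 140, 176 and 131 in KO1 to KO3. The levels of the 9 genes of the rule chose the members, and they are given below as a description only.

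The study examined what loss of Gatad2b (p66β, a subunit of the NuRD chromatin remodeling and deacetylase complex) does to the developing cortex. The embryos were on a C57BL/6N-Atm1Brd background and carried no stop allele (WT, 3 embryos), 1 stop allele (Gatad2b stop/+, Het, 4 embryos) or 2 (Gatad2b stop/stop, KO, 3 embryos). Their cortex was dissociated with papain, and each embryo gave 1 library (10X Genomics 3′ version 3). The stop allele is a gene trap of the tm1a design in an intron between coding exons of Gatad2b. The trap was not removed in these embryos, every cell type carries it, and the exons behind it are still in the genome, so 3′ UMIs of Gatad2b need not disappear. WT, Het and KO are used here as names of the genotypes, the study describes the Het and WT embryos as littermates, and the litter and sex of each embryo were not given.

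Most of the spiny projection neurons of the striatum come from the lateral ganglionic eminence. They are GABAergic and form the direct pathway, marked by the dopamine receptor Drd1 and the tachykinin Tac1, and the indirect pathway, marked by the dopamine receptor Drd2, the opioid Penk and the adenosine receptor Adora2a. The LIM homeodomain factor Isl1 and the factor Ebf1 are known for the differentiation of direct pathway neurons, while Six3 and Sp9 are known for that of indirect pathway neurons. Zfp503 (Nolz1) and the retinoid receptors Rarb and Rxrg act in striatal development. The dissection was labelled cortex, and the position of the members in the tissue was not measured.

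Libraries stood apart in ways that touch the results below. The library names of WT1, WT2, WT3 and Het4 share 1 prefix, and those of Het1, Het2, Het3 and all KO embryos share the other, so KO vs WT cannot be told apart from the prefix, whose meaning was not given. Comparisons of KO with Het1, Het2 and Het3 lie within 1 prefix. The median mitochondrial share of members was 3.36% to 3.65% in WT1 to WT3 and Het4, and 3.97% to 4.25% in the other embryos. Libraries of the first prefix held 9271 to 10386 barcodes, and those of the other 5996 to 7510. The part of these differences in the results was not tested. Het1 held almost no members with Isl1 but without Ebf1, and the members of WT1 and WT3 held more globin RNA than those of the other embryos, while over all kept cells globin was high in every library. The members had a median of 9248 UMIs per cell, from 8610.5 to 9968 among embryos, and their summed UMIs ranged from 1302326 to 2522635 per embryo. No barcode was shared between members of different libraries, while 29 members had a barcode that occurred in a kept cell of another library.

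The label was checked against markers that the rule did not use. Members were compared with 3 other classes of kept cells without Isl1 or Ebf1 UMIs. These were 2053 cells with both Six3 and Sp9 (Six3 Sp9 cells), 5442 cells with Lhx6 and at least 1 of 3 further genes of such interneurons, Maf and Sst among them (Lhx6 interneurons), and 33013 cells with at least 3 Neurod6 UMIs (Neurod6 neurons). Cells of the first 2 classes also held no UMI of the division genes Mki67 and Top2a and met the members' limit on Neurod6, Six3 Sp9 cells and Neurod6 neurons held no Lhx6 UMI, and all 3 met the limit on Col1a1 and Rgs5. Members were not filtered on division genes. Levels in this comparison are CPM, the UMIs of a gene scaled to a total of 1000000 UMIs for the class in an embryo, as mean ± SD over 10 embryos. They are descriptive, since genes that go with the rule differ by choice of the cells.

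Of 10 transcription factors of striatal neurons, 4 were higher in members than in Six3 Sp9 cells and in Lhx6 interneurons in 10 of 10 embryos. Foxp1 was at 1476 ± 247 CPM in members, 959 ± 128 in Six3 Sp9 cells, 56.0 ± 13.4 in Lhx6 interneurons and 194 ± 14.5 in Neurod6 neurons. Foxp2 was at 708 ± 129 CPM in members and 348 ± 70.1, 20.0 ± 7.97 and 31.0 ± 4.66 in the same 3 classes. Bcl11b (Ctip2) was at 2100 ± 147, 1528 ± 91.1, 585 ± 84.2 and 400 ± 98.3 CPM. All 3 genes were also above their level in Neurod6 neurons in 10 of 10 embryos. Meis2 was at 2849 ± 228 CPM in members, below its 4009 ± 302 in Six3 Sp9 cells in every embryo. Of the others, 4 were likewise below their level in Six3 Sp9 cells in every embryo. Tshz1 was at 42.1 ± 11.8 CPM in members and 385 ± 53.1 in Six3 Sp9 cells, Ikzf2 at 28.5 ± 6.07 and 75.5 ± 20.6, Meis1 at 57.0 ± 7.67 and 97.7 ± 15.2, and Mn1 at 173 ± 19.1 and 241 ± 13.7. Tshz1 was also lower in members than in Lhx6 interneurons (101 ± 15.2) in every embryo. Foxp4 was higher in members than in Six3 Sp9 cells in 8 of 10 embryos. The fourth factor that was higher was the lymphoid factor gene Ikzf1 (Ikaros), which is also expressed in the developing striatum, at 44.4 ± 15.6 CPM in members and at most 0.740 CPM in any embryo of the other classes.

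The members carried the GABA synthesis genes Gad1 and Gad2. Gad2 was at 397 ± 39.3 CPM in members, between its 527 ± 32.4 in Six3 Sp9 cells and 378 ± 20.2 in Lhx6 interneurons, and at 6.13 ± 1.58 in Neurod6 neurons. Gad1 was lower in members (53.5 ± 11.3 CPM) than in Six3 Sp9 cells (143 ± 17.2) and Lhx6 interneurons (169 ± 16.4). The excitatory gene Neurod2 was at 15.2 ± 4.41 CPM in members and 568 ± 21.2 in Neurod6 neurons. Its level in Six3 Sp9 cells was 17.6 ± 8.25 CPM and in Lhx6 interneurons 17.6 ± 7.95. Homeobox factor genes of the GABAergic lineage differed in direction. Dlx1 was at 61.4 ± 11.4 CPM in members, against 351 ± 68.7 in Six3 Sp9 cells and 348 ± 33.3 in Lhx6 interneurons. Dlx2 was at 40.5 ± 8.52, 211 ± 53.1 and 262 ± 34 CPM, and the noncoding gene Dlx6os1 at 225 ± 41.7, 484 ± 97 and 391 ± 54.7 CPM. These 3 genes were lower in members than in both classes in 10 of 10 embryos, while Dlx6 was higher in members (118 ± 19 CPM, against 80.5 ± 11.3 and 53.6 ± 13.3) in 10 of 10.

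On average, direct pathway genes other than Eya1 were higher in members, and indirect pathway genes were higher in Six3 Sp9 cells. Tac1 was at 75.6 ± 32.3 CPM in members and 1.19 ± 1.75 in Six3 Sp9 cells, and it was also found in Lhx6 interneurons (31.0 ± 15.6). Drd1 was at 18.3 ± 4.13 CPM in members, 3.43 ± 1.98 in Six3 Sp9 cells and 4.85 ± 0.664 in Neurod6 neurons. Zfp521, a zinc finger gene of direct pathway neurons, was at 75.4 ± 14.8 CPM in members and between 5.26 and 6.71 in the other classes. Drd2 was at 3.73 ± 3.39 CPM in members against 47.9 ± 10.7 in Six3 Sp9 cells, Adora2a at 5.17 ± 3.38 against 66.3 ± 9.72, and Penk at 10.0 ± 12 against 64.0 ± 25.2. Each of these 3 genes was lower in members in 10 of 10 embryos.

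**Figure D1:**
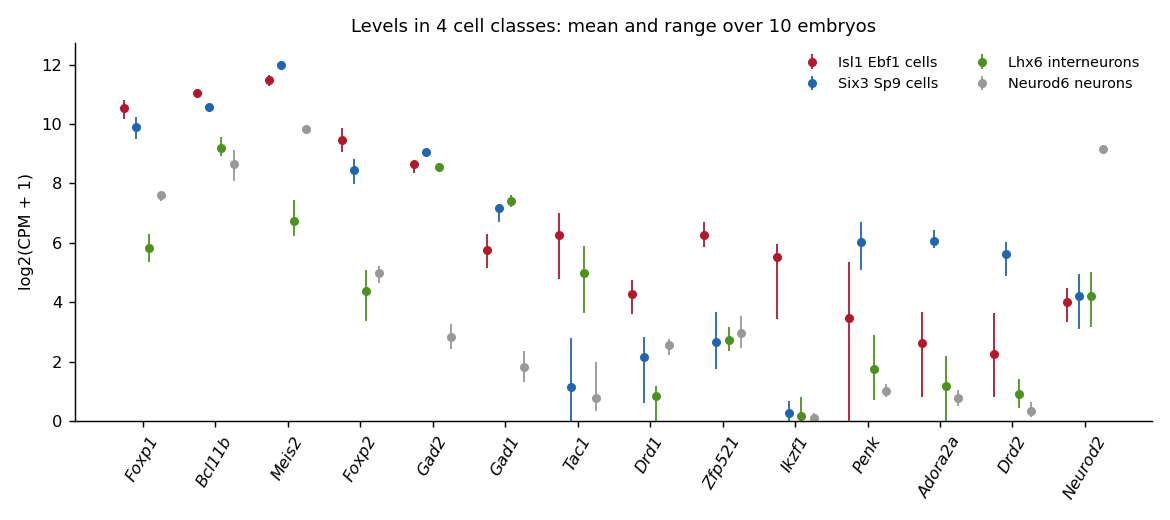
Levels of 14 genes that the rule did not use, as log2(CPM + 1) on the y axis, in 4 classes of cells; points are means and bars the range over 10 embryos. Foxp1, Foxp2 and Bcl11b sit highest in Isl1 Ebf1 cells, and Penk, Adora2a and Drd2 sit highest in Six3 Sp9 cells.

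Single cells rarely held UMIs of the dopamine and peptide genes. When cells were thinned to 5000 UMIs each, Drd1 was detected in 6.43% of 1463 members, 1.28% of Six3 Sp9 cells and 2.16% of Neurod6 neurons, and without thinning in 12.3%, 2.29% and 5.89%. Median depths before thinning were 9248, 8333 and 18033 UMIs. Tac1 was detected in 6.08% of thinned members and 0.263% of thinned Neurod6 neurons. Foxp2 was detected in 81.6% of thinned members, 39.7% of thinned Six3 Sp9 cells and 10.6% of thinned Neurod6 neurons. Adora2a was found in 1.91% of thinned members against 22.4% of thinned Six3 Sp9 cells. Among all members before thinning, 279 (16.6%) held only direct pathway UMIs (Drd1 or Tac1), 69 (4.12%) only indirect pathway UMIs (Drd2, Penk or Adora2a), 13 held both and 1315 (78.5%) neither. Eya1, also a direct pathway gene, went the other way. It was in 0.820% of thinned members, 1.33% of thinned Six3 Sp9 cells, 3.70% of thinned Lhx6 interneurons and 1.62% of thinned Neurod6 neurons. Its mean level was 1.87 CPM in members, 2.97 in Six3 Sp9 cells, 7.22 in Lhx6 interneurons and 3.50 in Neurod6 neurons.

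Tac1 had the highest ratio of CPM + 1 to Six3 Sp9 cells among genes of at least 50 CPM that no class rule used, and Isl1 is the factor the members were chosen by. The 250 bases before the RefSeq start of both genes (GRCm38.p6, 5′ to 3′ on the gene's strand) are shown with TAATTA, the core that many homeodomain proteins bind and which reads the same on both strands, in capitals. The Tac1 window is chr6:7554811-7555060 on the plus strand and the Isl1 window chr13:116309689-116309938 on the minus strand.
Tac1: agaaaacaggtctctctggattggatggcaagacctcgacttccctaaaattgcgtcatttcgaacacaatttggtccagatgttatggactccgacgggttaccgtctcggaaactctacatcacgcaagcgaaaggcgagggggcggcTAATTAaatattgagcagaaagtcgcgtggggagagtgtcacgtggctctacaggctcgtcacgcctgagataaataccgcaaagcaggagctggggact
Isl1: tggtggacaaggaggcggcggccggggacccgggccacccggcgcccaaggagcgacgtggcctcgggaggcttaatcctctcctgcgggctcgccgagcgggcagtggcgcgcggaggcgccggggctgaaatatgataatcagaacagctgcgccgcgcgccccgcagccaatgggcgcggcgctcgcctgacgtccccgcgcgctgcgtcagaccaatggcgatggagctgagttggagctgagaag
The motif occurred 1 time in the Tac1 window and 0 times in the Isl1 window, and 4.84% of 32851 such windows of the genome held it. A match of 6 letters is a description of the sequence and says nothing about binding.

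Other cell types that carry Isl1 were looked for. Choline acetyltransferase (Chat) of cholinergic neurons was at a mean of 0.351 CPM in members, and no gene of the 7 cholinergic markers passed the filter on low counts. The sum of those 7 genes was at most 6.77 CPM in every Het embryo and 1.54 in every KO embryo, while it ranged from 0.522 to 70.7 CPM in WT embryos. Their part in the results was not tested. Of 8 septal, hypothalamic and peripheral markers, only Zic1 passed the filter, and in each genotype 2 were at 0 in every embryo. The sum of the 8 was 2.61 to 102 CPM in WT embryos, 2.24 to 28.4 in Het embryos and 0 to 19.8 in KO embryos. Among single embryos, Zic1 reached 73.7 CPM and Nkx2-1 reached 10.0. The part of such cells in the results was not tested.

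The rule left a continuum at its edge. Of the members, 815 (48.6%) had 3 of the 5 genes, 575 (34.3%) had 4 and 286 (17.1%) had all 5. Isl1 was detected in 94.6%, Zfp503 in 83.4%, Ebf1 in 82.0%, Rarb in 54.2% and Rxrg in 54.1%. Just outside were 1012 cells that met every other condition but had exactly 2 of the 5 genes. Summed over embryos, the cells just inside (3 genes) and just outside (2 genes) had 816 and 277 CPM of Foxp1, 2002 and 946 CPM of Bcl11b, and 2910 and 2466 CPM of Meis2. Outside cells carried more of other types, with 70.1 CPM inside and 282 outside for Six3, 28.2 and 298 CPM for the endothelial gene Cldn5, and 97.2 and 291 CPM for the mitotic gene Top2a. A further 171 cells failed only the limit on Neurod6 and 60 only that on Lhx6. Doublet scores marked 22 members (1.31%).

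The members were not uniform in what they carried besides the rule genes. Isl1 and Ebf1 were both detected in 1285 members (76.7%), Isl1 without Ebf1 in 301 (18%) and Ebf1 without Isl1 in 90 (5.37%). Members with Isl1 but not Ebf1 had 1756 CPM of the LIM-only factor Lmo4, against 635 in members with both. The semaphorin receptor Nrp2 was at 214 against 8.21 CPM, the GDNF receptor Gfra1 at 72.6 against 4.48 and the zinc finger gene Tshz1 at 124 against 20.1. In the other direction, members with both had 1612 CPM of Foxp1 against 762, 89.3 CPM of Tac1 against 9.27, and 55.7 CPM of Ikzf1 against 0.598. Members with Ebf1 but not Isl1 had 3139 CPM of the radial glial gene Fabp7 and 125 CPM of Cldn5, against 127 and 8.21 CPM in members with both. These values are sums over embryos, and the detection of a gene depends on depth.

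The subset with Isl1 but not Ebf1 was uneven among embryos. It made up 14.1%, 21.8% and 25.6% of the members in WT, 1.5%, 24.3%, 24.5% and 24.2% in Het1 to Het4, and 7.14%, 17% and 9.92% in KO. Het1 held 2 such cells among 133 members. KO and WT overlapped. Members with Ebf1 but not Isl1 made up 8.70%, 10.3% and 5.64% of the members in WT1 to WT3, 5.26%, 3.95%, 5.81% and 4.24% in Het1 to Het4, and 2.14%, 3.41% and 3.05% in KO1 to KO3, so that every KO embryo lay below all others. These were 3 to 18 cells per embryo, and both genes are part of the rule, so no test is given. The tests of genes below were repeated on members with both genes, an alternative chosen after the data were seen, and its value stands beside each gene described below that lost its call there.

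The share of members among kept cells did not separate the genotypes. It was 2.27%, 2.43% and 2.50% in WT1 to WT3, 2.28%, 2.47%, 2.76% and 2.98% in Het1 to Het4, and 2.39%, 3.42% and 2.12% in KO1 to KO3. The mean of the WT embryos was 2.40% ± 0.117 (SD, n = 3), that of the Het embryos 2.62% ± 0.311 (n = 4) and that of the KO embryos 2.64% ± 0.686 (n = 3). Two-sided exact permutation tests gave p = 0.314 for Het vs WT, p = 0.9 for KO vs WT and p = 0.971 for KO vs Het, where the smallest values possible are 0.0286, 0.1 and 0.0286. Within 1 prefix, KO exceeded Het by 0.140 percentage points (exact permutation p = 0.9). KO2 decided the sign for KO vs WT, since the difference was 0.243 percentage points with it and -0.145 without it. Detection depends on depth, and with every cell thinned to 5000 UMIs, which left 57247 cells and 1200 members, the means were 1.96%, 2.15% and 2.16%. With at most 5% mitochondrial UMIs, Het exceeded WT by 0.426 percentage points (exact permutation p = 0.0286, the smallest the design can give).

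**Figure D2:**
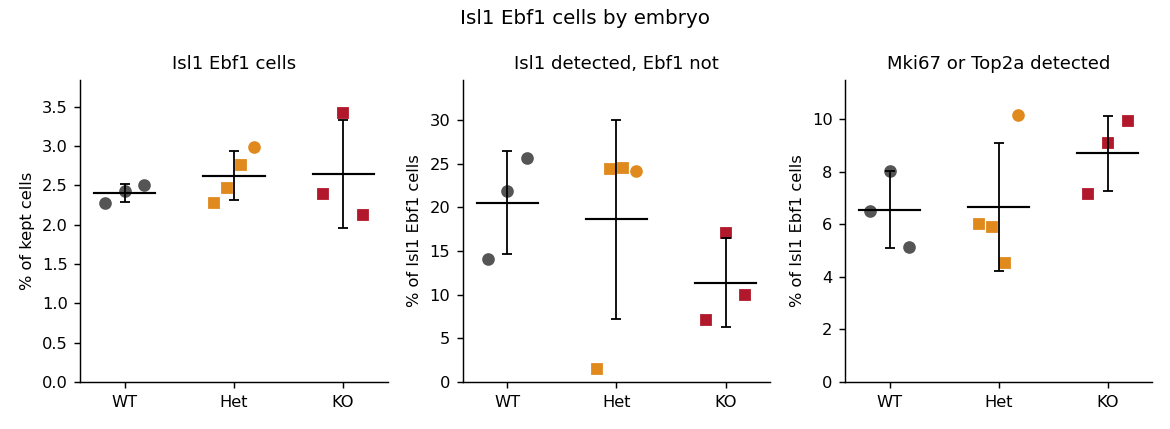
Each point is 1 embryo, with squares for the prefix of the KO libraries and circles for that of the WT libraries; lines are means and bars SD, and the y axes are percent of kept cells (left) or of Isl1 Ebf1 cells (middle and right). The shares overlap between genotypes, and Het1 lies at 1.5% in the middle panel where the other Het embryos lie between 24.2% and 24.5%.

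Cells in division did not separate the genotypes either. The mitotic genes Mki67 or Top2a were detected in 123 members (7.34%). The WT shares ran from 5.13% to 8.05%, the Het shares from 4.52% to 10.2% and the KO shares from 7.14% to 9.92%, and all 3 groups overlapped. Of 9 progenitor and division genes tested, 0 were called in KO vs WT. The sum of the 10 genes of that list varied widely within genotypes. It was 250 to 921 CPM in WT embryos, 231 to 2089 in Het embryos and 311 to 699 in KO embryos. The part of such cells in the results was not tested.

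For tests of genes, UMIs of all members were summed per embryo and 10011 genes were tested over all 10 embryos with edgeR's quasi-likelihood test. A gene was called at a Benjamini-Hochberg adjusted p under 0.05 with an absolute log2 fold change (log2FC) over 0.25. From here on CPM of single genes in all members are scaled by TMM, a factor per library that sets the bulk of genes equal. Sums over lists and levels in subsets, other classes or all kept cells are not scaled by TMM. KO vs WT called 413 genes (4.13%), 209 higher (2.09%) and 204 lower (2.04%) in KO. Over all genes, the KO and WT embryos did not overlap for 23.7%. Het vs WT called 7 genes (0.0699%) and KO vs Het 20 (0.2%), 9 higher (0.0899%) and 11 lower (0.11%) in KO. In KO vs WT the count rested on single embryos, with 123 calls without KO2, 274 without KO3, 160 without WT3 and 238 without WT2. With members that had both Isl1 and Ebf1, 281 of 9293 genes were called (3.02%), 234 of them among the 413, and 0 of the 413 changed sign. With the prefix as a covariate, so that Het4 alone ties the prefixes together, 8 genes were called. Within 1 prefix, KO vs Het called 17 of 9311 genes (0.183%). The 20 calls of KO vs Het over all Het embryos also rested on single embryos, with 7, 8 and 10 calls without Het2, Het3 and Het4, 8 and 5 without KO2 and KO3, and 0 without KO1 (edgeR; 828 genes were then at an unadjusted p under 0.05).

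**Figure D3:**
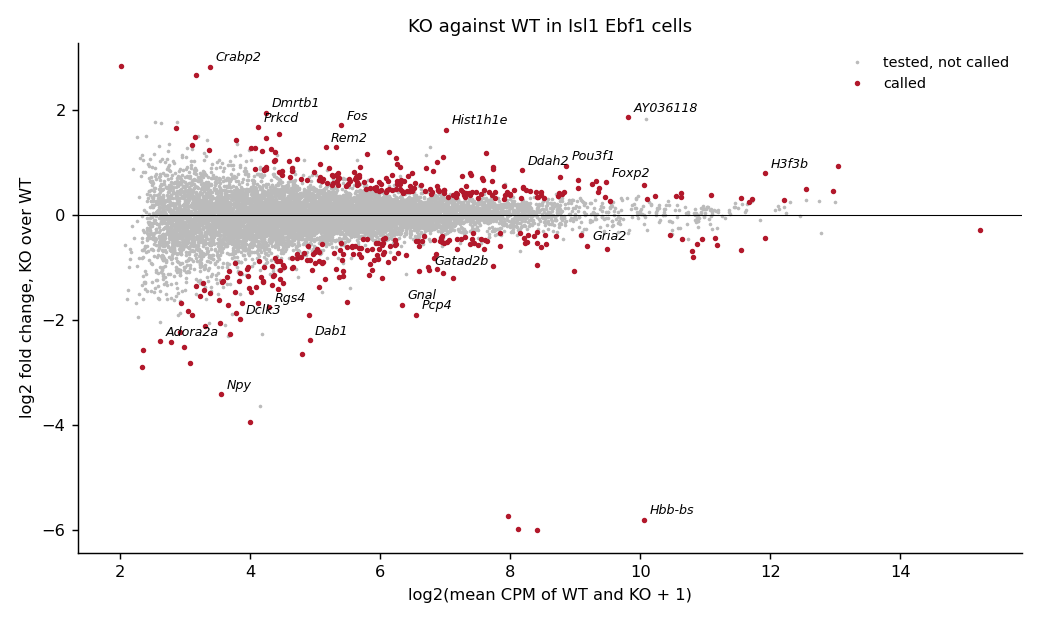
Log2 fold change of KO over WT on the y axis against log2(mean CPM of WT and KO + 1) on the x axis, with 1 point per gene tested in Isl1 Ebf1 cells and called genes in red. The 4 adult globin genes lie at -5.72 or below, and Gnal, Pcp4, Dab1 and Npy lie among the called genes that were lower in KO.

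The targeted gene was lowest in KO. Gatad2b (chr3:90293178-90363407, plus strand, GRCm38) was at 148, 135 and 148 CPM in WT1 to WT3, 123, 116, 114 and 102 in Het1 to Het4, and 64.6, 63.5 and 80.5 in KO1 to KO3. No group overlapped another. In KO vs WT the log2FC was -1.05 ± 0.11 (SE; edgeR adjusted p = 9.83e-05) and within 1 prefix KO vs Het it was -0.77 ± 0.13 (adjusted p = 0.0167). Het vs WT did not pass, with a log2FC of -0.34 ± 0.10 (adjusted p = 0.253). Of 15 NuRD genes tested, 2 others were called in KO vs WT. Gatad2a, the paralog that takes the same place in the complex, was at 25.7 to 32.5 CPM in WT embryos, 34.6 to 38.2 in Het embryos and 42.6 to 46.1 in KO embryos (log2FC 0.57 ± 0.14, adjusted p = 0.0295), but did not pass in members with both Isl1 and Ebf1 (adjusted p = 0.268) or without any 1 of the WT or KO embryos (adjusted p from 0.0522 to 0.137). Cdk2ap1, a small subunit, was at 32.1 to 35.1 CPM in WT, 27.0 in Het4 and 60.8 to 93.4 in the other 6 embryos. The part of the library prefix was not tested. The call of Cdk2ap1 was lost without WT3 or KO2 (adjusted p = 0.0634 and 0.128). The median log2FC of the 15 genes was 0.10, beside -0.01 over all genes tested.

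Of 9 genes of dopamine and cAMP signalling in spiny neurons that were tested, 4 fell in KO, 0 rose, 5 were not called, and their median log2FC was -0.74 in KO vs WT and -0.35 in Het vs WT, beside -0.00557 and -0.00306 over all genes. Without KO2, 2 of them were called, without WT3 and without WT1 3 each, and with the prefix as a covariate 0. The sum of the 11 genes of the list was lower in KO in Neurod6 neurons as well. It was 439 to 473 CPM there in WT embryos, 366 to 430 in Het embryos and 327 to 354 in KO embryos. Gnal, the G protein subunit Gαolf that couples Drd1 and Adora2a to adenylyl cyclase, was at 120, 125 and 118 CPM in WT1 to WT3, 67.2, 64.3, 99.3 and 79.0 in Het1 to Het4, and 48.0, 22.2 and 42.5 in KO1 to KO3. All KO embryos were below all Het embryos, and those below all WT embryos, Het4 with the prefix of the WT libraries included. The log2FC was -1.71 ± 0.19 in KO vs WT (edgeR adjusted p = 0.000125), -1.87 with members that had both genes (adjusted p = 0.000118), -0.63 ± 0.16 in Het vs WT (adjusted p = 0.169) and -1.07 ± 0.22 in KO vs Het within 1 prefix (adjusted p = 0.0714).

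The other 3 that fell were Pde10a, Arpp21 and Gng7. Pde10a, the phosphodiesterase of spiny neurons, was at 169, 119 and 142 CPM in WT, 99.2, 107, 112 and 96.1 in Het and 99.9, 69.5 and 87.4 in KO (log2FC -0.74 ± 0.14, adjusted p = 0.00507, and 0.0504 without KO2). WT lay above every Het and KO embryo, while Het and KO overlapped. Arpp21, a cAMP-regulated phosphoprotein, was at 185, 134 and 148 CPM in WT, 121, 76.7, 110 and 109 in Het and 78.6, 52.7 and 98.8 in KO (log2FC -1.03 ± 0.18, adjusted p = 0.00345). Again WT lay above all mutants and Het overlapped KO. Gng7, the γ subunit that pairs with Gαolf, was at 24.7 to 28 CPM in WT and 8.36 to 14.7 in KO (log2FC -1.15 ± 0.29, adjusted p = 0.0286), with Het4 at 31.8 above WT, and it did not pass in members with both genes (adjusted p = 0.154) or without WT1, WT3, KO2 or KO3 (adjusted p from 0.071 to 0.113). Het embryos lay wholly to 1 side of WT for 4 of the 9 genes, and over all genes this held for 9.97%.

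Among genes that mark the output pathways of the striatum, 1 was called in KO vs WT. Of 3 direct pathway genes tested, 0 were called. Drd1 was at 16.3, 10.9 and 19.4 CPM in WT, 19.1, 13.7, 19.4 and 17.1 in Het and 26.6, 22.2 and 19.8 in KO (log2FC 0.57 ± 0.23, adjusted p = 0.191). KO lay just above WT. Tac1 was at 107, 45.0 and 26.7 CPM in WT and 54.6, 95.2 and 111 in KO, which overlap (log2FC 0.57 ± 0.35, adjusted p = 0.418). Of 5 indirect pathway genes, Adora2a fell, with 11.7, 6.92 and 7.34 CPM in WT, 6.87, 3.42, 3.99 and 7.15 in Het and 2.66, 1.2 and 0.760 in KO (log2FC -2.40 ± 0.52, adjusted p = 0.012). KO lay below all WT and Het embryos. The call was lost without WT1, KO2 or KO3 (adjusted p = 0.0599, 0.09 and 0.0593). Adora2a was at 47.6 CPM in members with Ebf1 but not Isl1, summed over embryos, whose share was lower in every KO embryo than in the others, and the part of this subset was not tested. Adora2a was not tested in members with both Isl1 and Ebf1, where it was at 2.72 CPM. Penk was at 40.2, 17.8 and 0 CPM in WT and did not pass (log2FC -2.29 ± 0.85, adjusted p = 0.142).

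Among 10 striatal transcription factors, 1 rose. Foxp2 (chr6:14901349-15441977, plus strand) was at 578, 525 and 566 CPM in WT1 to WT3, 776, 720, 721 and 677 in Het1 to Het4, and 956, 765 and 863 in KO1 to KO3. Every Het embryo, Het4 included, and every KO embryo lay above WT, while KO2 lay within the range of Het. The log2FC was 0.63 ± 0.09 in KO vs WT (edgeR adjusted p = 0.000761), 0.38 ± 0.08 in Het vs WT (adjusted p = 0.115) and 0.22 ± 0.09 in KO vs Het within 1 prefix (adjusted p = 0.719). The factors with the highest levels did not pass in KO vs WT, with a log2FC of -0.03 ± 0.15 for Foxp1, 0.16 ± 0.08 for Bcl11b and 0.14 ± 0.08 for Meis2. Foxp4, another forkhead factor gene, did not pass over all members (log2FC -0.34, adjusted p = 0.193) and was called lower in members with both genes (log2FC -0.54, adjusted p = 0.0344).

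Of 6 genes of retinoid handling tested, 2 were called higher and 0 lower in KO vs WT, with a median log2FC of 0.36. Crabp2, a retinoic acid-binding protein, was at 0.583, 3.46 and 2.62 CPM in WT, 11.5, 2.05, 17.7 and 2.38 in Het and 9.99, 21.0 and 19.0 in KO (log2FC 2.82 ± 0.67, adjusted p = 0.0213). Het2 and Het4 lay with WT, Het1 and Het3 with KO. The call of Crabp2 was lost without WT1, WT3, KO2 or KO3 (adjusted p from 0.0711 to 0.124). Without KO2, 1 gene of the list was called higher and 1 lower, and with the prefix as a covariate 0.

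Genes of the striosome and matrix compartments moved both ways. Bach2, a bZIP factor gene, was at 162, 135 and 145 CPM in WT, 186, 166, 174 and 168 in Het and 256, 218 and 225 in KO. The 3 groups did not overlap. The log2FC was 0.66 ± 0.10 in KO vs WT (adjusted p = 0.00085), 0.63 in members with both genes (adjusted p = 0.00161) and 0.41 ± 0.10 in KO vs Het within 1 prefix (adjusted p = 0.173). Oprm1, the μ-opioid receptor of striosomes, was lower in KO (log2FC -0.87 ± 0.24, adjusted p = 0.0462), with 22.3 to 32.0 CPM in WT and 11.4 to 17.3 in KO, and did not pass in members with both genes (adjusted p = 0.105). Gda, guanine deaminase, was lower (log2FC -1.43 ± 0.38, adjusted p = 0.0394) at 11.4 to 14.7 CPM in WT and 2.99 to 7.99 in KO. Both calls were lost when single embryos were left out. Without WT1, WT3, KO2 or KO3 neither passed, with adjusted p from 0.0869 to 0.23 for Oprm1 and from 0.0803 to 0.209 for Gda. Oprm1 also did not pass without KO1 (adjusted p = 0.0595), nor Gda without WT2 or Het3 (adjusted p = 0.0701 and 0.0507). The list had 7 genes tested and a median log2FC of -0.04.

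Of 14 transmitter receptors and neurexins, 3 fell and 0 rose in KO vs WT, with a median log2FC of -0.13. The AMPA receptor gene Gria2 was at 765, 687 and 639 CPM in WT, 536, 498, 511 and 615 in Het and 466, 436 and 494 in KO (log2FC -0.58 ± 0.10, adjusted p = 0.00206). The 3 groups did not overlap, and it passed in members with both genes (log2FC -0.52, adjusted p = 0.0137). The GABA receptor gene Gabrg3 was at 21.0 to 24.2 CPM in WT embryos, 6.87 to 15.1 in Het embryos and 6.66 to 9.58 in KO embryos (log2FC -1.47 ± 0.28, adjusted p = 0.00553), and the NMDA receptor gene Grin1 was at 14.3 to 23.6, 2.29 to 10.3 and 7.33 to 8.38 (log2FC -1.25 ± 0.35, adjusted p = 0.0487). Neither Gabrg3 nor Grin1 passed in members with both genes (adjusted p = 0.0982 and 0.125), and Grin1 did not pass without WT1, WT3, Het2, Het3 or any KO embryo (adjusted p from 0.0538 to 0.214). In members with both genes the AMPA receptor gene Gria4 was called lower (log2FC -0.72, adjusted p = 0.0343). Of 19 axon growth and guidance genes, the adhesion gene Lsamp was the 1 called (log2FC -0.50 ± 0.13, adjusted p = 0.031). Its call was lost without WT1, WT2, WT3, KO1 or KO2 (adjusted p from 0.0556 to 0.186). In members with both Isl1 and Ebf1, Lsamp and the adhesion gene Ncam1 were lower and the Slit receptor gene Robo1 was higher.

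Beyond the lists, genes were named by size of change among called genes whose embryos did not overlap and whose mean was at least 20 CPM in 1 of the 2 groups, which some genes reached only in the group where they were high. Pcp4, a calmodulin-binding peptide, was at 110, 153 and 176 CPM in WT1 to WT3, 107, 134, 196 and 73.1 in Het1 to Het4, and 33.3, 54.5 and 28.1 in KO1 to KO3. All KO embryos lay below all others, and Het overlapped WT. The log2FC was -1.90 ± 0.30 in KO vs WT (adjusted p = 0.00149) and -1.91 ± 0.22 in KO vs Het within 1 prefix (adjusted p = 0.00103). Dclk3, a kinase of the doublecortin-like family, was at 19.9 to 23.9, 11.5 to 18.3 and 4.19 to 6.08 CPM in WT, Het and KO, without overlap (log2FC -1.98 ± 0.29, adjusted p = 0.000793). The noncoding gene 2900009J06Rik likewise went from 42.0 to 47.7 over 28.1 to 37.3 to 6.84 to 18 CPM, and passed within 1 prefix (log2FC -1.38 ± 0.27, adjusted p = 0.0444). Rgs4, a regulator of G protein signalling, was at 19.3 to 41.4 CPM in WT and 2.40 to 12.7 in KO (log2FC -1.75 ± 0.41, adjusted p = 0.0192), and its call was lost without WT1, KO2 or KO3 (adjusted p from 0.0501 to 0.132).

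Dab1, the adaptor of reelin signalling, was at 36.2, 59.8 and 50.3 CPM in WT1 to WT3, 19.1, 35.6, 29.1 and 52.8 in Het1 to Het4, and 4.66, 11.4 and 12.2 in KO1 to KO3. KO lay below all others and Het overlapped WT. The log2FC was -2.38 ± 0.35 over all members (edgeR adjusted p = 0.000793), and -1.01 in members with both Isl1 and Ebf1 (adjusted p = 0.209). Those members leave out the subset with Isl1 but not Ebf1. Its share was lower in KO1 and KO3 than in every WT embryo, within the range of WT in KO2, and lowest in Het1. The subset is defined by genes of the rule and held few cells, with 2 in Het1, 10 in KO1 and 13 in KO3. The part of the subset in the change was not tested.

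Among genes that were higher in KO, Rem2, a small GTPase, was at 25.1, 17.8 and 17.8 CPM in WT, 27.5, 24.0, 30.2 and 28.2 in Het and 51.9, 48.5 and 47.1 in KO. The KO embryos lay well above the others, and the log2FC was 1.29 ± 0.16 in KO vs WT (adjusted p = 0.000247) and 0.84 ± 0.16 in KO vs Het within 1 prefix (adjusted p = 0.0444). Rgs10, another regulator of G protein signalling, was at 14.6 to 32.1, 22.9 to 33.1 and 47.9 to 60.5 CPM in WT, Het and KO, and passed in both comparisons (log2FC 1.30 ± 0.21 and 0.91 ± 0.17; adjusted p = 0.00195 and 0.0444). The other genes named by the rule were Dmrtb1 (log2FC 1.95 ± 0.29), Prkcd (1.67 ± 0.29), Mlf1 (1.55 ± 0.29), As3mt (1.47 ± 0.27) and Olfm3 (1.29 ± 0.33), whose means lay between 7.41 and 10.8 CPM in WT and between 21.5 and 30.8 in KO. Without KO2, Mlf1 did not pass (adjusted p = 0.0543). Olfm3 did not pass in members with both genes (adjusted p = 0.286), nor without any 1 of the WT or KO embryos (adjusted p from 0.0692 to 0.126).

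For 3 other called genes, Het4 lay near the WT embryos, whose library prefix it carries, and apart from the other Het embryos. The part of the prefix was not tested. The noncoding transcript AY036118 was at 411, 357 and 399 CPM in WT and 349 in Het4, and between 1294 and 1577 in the other 6 embryos. The study took a transcript printed under nearly the same name out of its matrix, because it maps to rDNA repeats. Whether the 2 names mean the same transcript was not stated. Hist1h1e, a linker histone gene, was at 46.1 to 76.4 CPM in WT, 67.1 in Het4 and 142 to 206 in the others. Fos, an immediate early gene, was at 14.6 to 22.0 CPM in WT, 20.7 in Het4 and 32.0 to 85.8 in the others. Of 9 immediate early genes, 4 were called higher in KO (Fos, Jun, Jund and Dusp1). Without KO2 or WT3, 1 of the 9 was called, without WT1 2, and Jun did not pass in members with both genes (adjusted p = 0.0641). Fos did not pass without WT1, WT3, KO2 or KO3 (adjusted p from 0.0522 to 0.0958), and within 1 prefix the log2FC of Fos in KO vs Het was 0.02 ± 0.23 (adjusted p = 0.997).

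**Figure D4:**
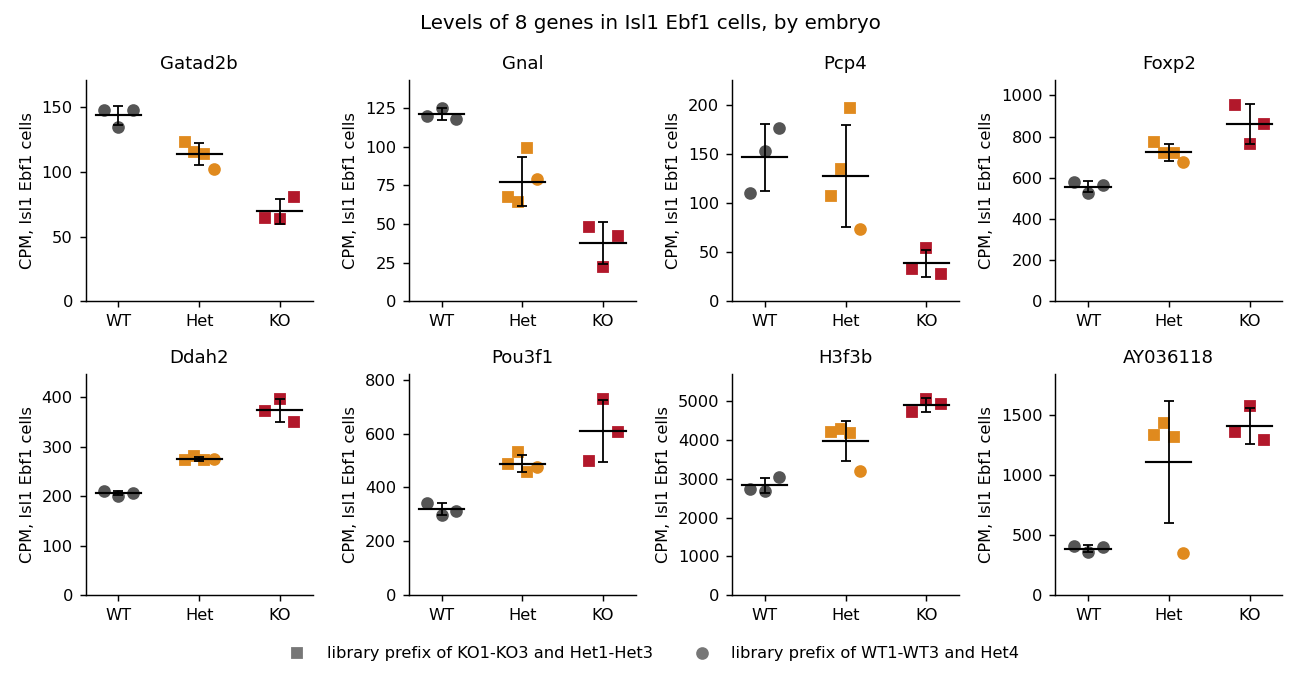
Levels in CPM (TMM-scaled) of 8 genes, 1 point per embryo, with squares and circles for the 2 library prefixes, lines for means and bars for SD. Gatad2b and Gnal step down and Ddah2 steps up from WT over Het to KO with Het4 (the circle) among the other Het embryos, whereas AY036118 in Het4 lies at 349 with WT.

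Loss of 1 allele was tested in Het vs WT. It called 3 genes higher (0.03%) and 4 lower (0.04%). Ddah2, an enzyme that degrades methylated arginine, was at 211, 201 and 207 CPM in WT1 to WT3, 273, 281, 274 and 276 in Het1 to Het4, and 372, 398 and 351 in KO1 to KO3. The 3 groups were well apart and Het4 lay with the other Het embryos. The log2FC was 0.42 ± 0.08 in Het vs WT (edgeR adjusted p = 0.0455, and 0.0758 in members with both Isl1 and Ebf1, where it did not pass) and 0.86 ± 0.08 in KO vs WT (adjusted p = 2.77e-05). In KO vs Het over all Het embryos, and so not within 1 prefix, it was 0.44 (adjusted p = 0.0208).

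Pou3f1 (chr4:124656807-124660655, plus strand), a POU homeodomain factor, was at 343, 299 and 314 CPM in WT, 488, 531, 459 and 475 in Het, and 497, 727 and 605 in KO. All mutants lay above WT and Het overlapped KO. The log2FC was 0.62 ± 0.11 in Het vs WT (adjusted p = 0.0299) and 0.94 ± 0.11 in KO vs WT (adjusted p = 0.000133). H3f3b, which encodes the replacement histone H3.3, was at 2747, 2693 and 3059 CPM in WT, 4203, 4301, 4179 and 3198 in Het, and 4726, 5068 and 4929 in KO. Het4 lay nearer to WT than to the other Het embryos. The log2FC was 0.49 ± 0.09 in Het vs WT (adjusted p = 0.0455) and 0.79 ± 0.09 in KO vs WT (adjusted p = 0.000131). H3f3b is among the genes that the study chose on these embryos as dosage-sensitive, so its direction is not independent evidence. Of 12 such genes taken from the study's text, which are part of its set, H3f3b was called higher and Arpp21 lower in KO vs WT. The calls of these 3 genes in Het vs WT were lost when single embryos were left out, KO embryos among them. In the fits that lost the call, the log2FC was 0.40 to 0.42 for Ddah2, 0.57 to 0.64 for Pou3f1 and 0.44 to 0.55 for H3f3b. Ddah2 did not pass without WT2, WT3, Het1, Het2, Het3, KO1 or KO3 (adjusted p from 0.0516 to 0.252), Pou3f1 without WT2, WT3, Het1, Het2, Het3 or KO3 (from 0.0541 to 0.193), and H3f3b without any 1 of the 10 embryos but Het4 (from 0.0518 to 0.196). Without Het4 the comparison of Het with WT called 76 genes, without WT1 31, and without Het3 or KO3 4 each, while with the prefix as a covariate it called 0 (edgeR; 319 genes were at an unadjusted p under 0.05, and DESeq2 without the covariate called 28).

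The 4 genes lower in Het were the adult globins. Hbb-bs was at 3368, 114 and 2775 CPM in WT embryos, 26.7 to 60.2 in Het embryos and 27.3 to 44.9 in KO embryos, and Hba-a1, Hba-a2 and Hbb-bt had the same order with WT2 lowest of the WT embryos. Globin RNA comes from erythroid cells. Hbb-bs was also found in Neurod6 neurons, at 304 to 1177 CPM over the 10 embryos. In Six3 Sp9 cells WT1 and WT2 were high, at 3827 and 2826 CPM, and WT3 was at 125, while the 7 mutant embryos lay between 25.6 and 75.4. In Lhx6 interneurons mutants were not uniformly low, with 1940 to 2127 CPM in the WT embryos, 690, 69.2, 4864 and 878 in Het1 to Het4 and 1257, 41.2 and 43.1 in KO1 to KO3. Over all kept cells Hbb-bs was not lower in Het, with 6596, 9188 and 7823 CPM in WT1 to WT3 and 9058, 11904, 10487 and 3245 in Het1 to Het4. The summed level of 12 glial, vascular, blood and choroid plexus markers was 217 to 4522 CPM in WT members, 42.4 to 82.6 in Het and 42.7 to 89.1 in KO. Hbb-bs and Hba-a1 are among these markers, at 3360 and 1104 CPM in WT1 (not scaled by TMM). The sum therefore does not show whether the other markers differed.

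Of 6 markers of MGE interneurons tested in members, all of which lacked Lhx6 by rule, 4 were lower in KO vs WT (Sst, Npy, Maf and Erbb4). Sst did not pass in members with both genes (adjusted p = 0.0802). The sum of the 6 was 71.5 to 124 CPM in WT embryos, 54.3 to 75.2 in Het embryos and 23.3 to 49.9 in KO embryos. In Lhx6 interneurons Sst alone was at 1236 ± 499 CPM. Npy, a neuropeptide gene, was at 13.4, 24.2 and 21.0 CPM in WT members, 18.3, 13.0, 15.4 and 11.9 in Het and 0.666, 1.80 and 3.04 in KO (log2FC -3.41 ± 0.42, adjusted p = 0.000166). In each embryo it was below its level in Neurod6 neurons, which was 60.4 to 86.3 CPM in WT embryos, 77.8 to 91.3 in Het embryos and 18.9 to 27.0 in KO embryos. Without KO2 and without WT3, 1 of the 6 was called each, Sst also did not pass without WT1, WT2 or KO1, nor Maf and Erbb4 without KO1, and their part in the other results was not tested. Of 5 excitatory genes tested, 0 were called, and the sum of the 8 excitatory markers was 67.7 to 80.9 CPM in WT embryos, 38.5 to 108 in Het embryos and 39.0 to 54.5 in KO embryos. Of 3 markers of caudal ganglionic eminence (CGE) interneurons, 0 were called.

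The effect of KO in members was then compared with that in Six3 Sp9 cells and in Lhx6 interneurons, by testing the interaction of genotype with class with the embryo as a block. Against Six3 Sp9 cells, 39 of 10467 genes differed (0.373%), and against Lhx6 interneurons 129 of 11530 (1.12%). Without KO2 these counts were 22 and 65, and against Lhx6 interneurons 56 without KO1, 75 without WT2 and 85 without WT3. The prefix is shared by both classes of an embryo. Fitted on their own, Six3 Sp9 cells had 915 called genes in KO vs WT (9.3%), Lhx6 interneurons 1249 (10.7%) and Neurod6 neurons 4288 (26.9%). The classes differed in numbers of cells and of genes tested, so these counts are not ranked. The reason for their differences was not tested.

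The change of Pou3f1 in members differed from that in both other classes. Its log2FC in KO vs WT was 0.94 ± 0.11 in members, -0.37 ± 0.14 in Six3 Sp9 cells and -0.59 ± 0.42 in Lhx6 interneurons. The difference was 1.30 ± 0.15 against Six3 Sp9 cells (adjusted p = 1.54e-05) and 1.5 ± 0.36 against Lhx6 interneurons (adjusted p = 0.0447). In Neurod6 neurons its log2FC was -0.36 ± 0.08, and that difference was not tested. Gnal fell more in members than in Lhx6 interneurons (difference -1.31 ± 0.24, adjusted p = 0.00591), and the difference from Six3 Sp9 cells did not pass the threshold (-0.91 ± 0.21, adjusted p = 0.0651), where its log2FC was -0.81 ± 0.15. Dab1 likewise differed from Lhx6 interneurons (-2.01 ± 0.27, adjusted p = 0.000351) and not past the threshold from Six3 Sp9 cells (-1.09 ± 0.37, adjusted p = 0.272), and Ddah2 rose more than in Lhx6 interneurons (0.53 ± 0.09, adjusted p = 0.00377).

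For some genes the other class carried the change. The cannabinoid receptor gene Cnr1 had a log2FC of -1.35 ± 0.29 in Six3 Sp9 cells and -1.30 ± 0.18 in Lhx6 interneurons, and in members of 0.39 ± 0.13 (adjusted p = 0.0956). The factor gene Nfia rose in both other classes (0.79 ± 0.12 and 1.23 ± 0.12), with a value in members of -0.36 ± 0.29 (adjusted p = 0.55). For Gatad2b, H3f3b, Foxp2, Pde10a, Arpp21 and Gria2 the differences from both classes did not pass the threshold. For Gatad2b they were -0.20 ± 0.14 and -0.09 ± 0.12, and for H3f3b 0.20 ± 0.06 and 0.10 ± 0.06. For Pde10a the difference from Lhx6 interneurons was -0.61 ± 0.16 (adjusted p = 0.0625).

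**Figure D5:**
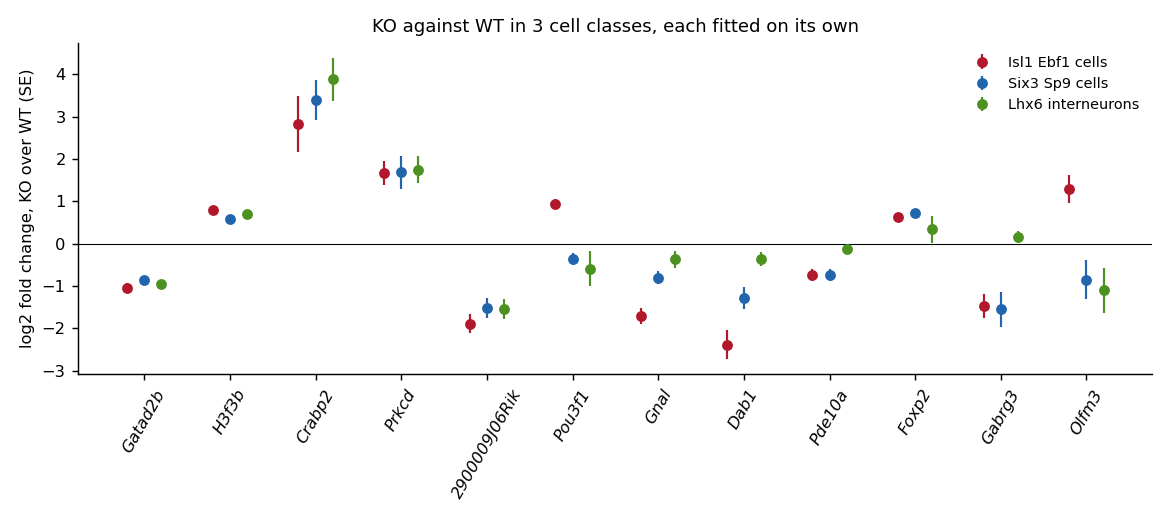
Log2 fold change of KO over WT on the y axis, with bars for the SE, for 12 genes in Isl1 Ebf1 cells, Six3 Sp9 cells and Lhx6 interneurons, each class fitted on its own. Gatad2b and H3f3b lie close together in the 3 classes, and Pou3f1 and Olfm3 lie above 0 only in Isl1 Ebf1 cells. For Olfm3 the difference from Six3 Sp9 cells was not called.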

How the data were processed

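The authors aligned reads to mm10 and deposited 1 matrix of raw UMI counts, genes by cell barcodes, for each of 10 embryos. The file headers name Cell Ranger 6.0.2, while the methods name an older release. The values are whole counts. There were 80071 barcodes, of which 65779 were kept (from 5147 to 8103 per embryo) with 82872641 to 123737385 UMIs per embryo.

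The members, gene lists and tests were chosen with earlier results of these data known. Counts were summed per embryo over member cells, filtered by filterByExpr and scaled by TMM. They were tested with edgeR 4.0.16 (limma 3.58.1, R 4.3.3) in 1 fit of 10 embryos, and by DESeq2 1.42.0 as an alternative. The 9 rule genes stayed in the filter, the scaling and the fit. In edgeR they were left out before p-values were adjusted, and in DESeq2 they were left out of the calls. Fold changes are log2 ratios. Tests were tested on simulated data. Shares were compared by exact permutation over embryos (scipy 1.17.1, Python 3.11.15). p-values set a difference between groups against the spread between embryos. For doublets, the Scrublet method of scanpy 1.11.5 was used, whose own thresholds marked 0.0128% to 2.53% of cells. The highest-scoring share expected from cell number, 4.12% to 6.48%, was marked instead. Marked cells stayed in, and an alternative left them out. Genes were named if they were in 1 of 19 lists, or were among the 10 largest increases and decreases in KO vs WT or the 5 in Het vs WT that were called without overlap of embryos and reached a mean of 20 CPM in 1 of the 2 groups. Thinning drew 5000 UMIs per cell. Gene positions are from GENCODE vM21 on GRCm38. Other alternatives are named in the closing section. Some genes and their values are not reported here, though they stay in the fits and counts.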

Additional observations from a re-analysis of the deposited data

Results flagged for a closer look

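Of 50 results tested in the 4 Het embryos, 3 had 1 embryo whose gap to the nearest of the others exceeded Dixon's 95% critical share of the range, and chance gives about 1 in 20. Erbb4, a receptor gene of interneurons, was at 3.05 CPM in Het1 members and 17.7 to 18.3 in the others. AY036118 was at 349 CPM in Het4 against 1316 to 1436, and H3f3b at 3198 CPM in Het4 against 4179 to 4301. Het4 carries the library prefix of the WT embryos, and the part of the prefix was not tested.

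The effect of KO in members differed by the interaction test from that in Six3 Sp9 cells for 9 genes named by rule (log2 difference, members minus Six3 Sp9 cells). It was higher by 1.74 for the cannabinoid receptor gene Cnr1, 1.37 for the semaphorin receptor gene Nrp1, 1.30 for Pou3f1, 1.29 for the netrin receptor gene Dcc, 1.15 for Lypd1 and 0.72 for the Slit receptor gene Robo2. It was lower for the Dlx-linked noncoding gene Dlx6os1 (-0.81), the ephrin receptor gene Epha4 (-0.46) and the factor gene Nfia (-1.14).

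It also differed from that in Lhx6 interneurons. The differences above 0 were 2.37 for Olfm3, 1.91 for Lypd1, 1.70 for Cnr1, 1.5 for Pou3f1, 0.89 for Meis2, 0.53 for Ddah2 and 0.38 for Foxp1. Those below 0 were -2.35 for Npy, -2.07 for Erbb4, -2.01 for Dab1, -1.61 for Gabrg3, -1.58 for Nfia, -1.38 for Nrp2, -1.31 for Gnal, -0.65 for Dlx6os1 and -0.54 for the adhesion gene Ncam1. In members, Npy was at a few CPM or less in KO and below its level in Neurod6 neurons in every embryo.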

How the results depend on the processing

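Het vs WT called 28 genes with DESeq2, 221 without the filter on low counts, 116 with the replicate number as a block, 0 with the library prefix as a covariate (319 at an unadjusted p under 0.05 in edgeR), 4 with at least 4 of the 5 markers, 21 with members that had both Isl1 and Ebf1, and 4 to 76 when 1 embryo was left out. KO vs WT called 837 genes without the filter, 8 with the prefix covariate, 191 with at least 4 markers and 123 to 493 with 1 embryo left out. KO vs Het called 155 without the filter, 11 with the prefix covariate and 0 to 25 with 1 embryo left out. The difference from Six3 Sp9 cells gave 153 genes without the filter, 16 with DESeq2 and 22 to 53 with 1 embryo left out, and that from Lhx6 interneurons 289, 52 and 56 to 145. The share of members in Het minus WT was 0.426 percentage points with at most 5% mitochondrial UMIs (p = 0.0286 by exact permutation) and 0.103 to 0.338 with 1 embryo left out. KO minus WT was -0.145 to 0.504 with 1 embryo left out. KO minus Het, which was near 0, was -0.00583 with at least 3000 UMIs, -0.0434 with at most 5% mitochondrial UMIs, -0.0101 without marked doublets, -0.139 without the limit on Neurod6, and -0.368 to 0.281 with 1 embryo left out. The prefix covariate turned AY036118 to -0.10 and Cdk2ap1 to -0.14. The cause of these changes was not tested.

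Of 46 named genes called in KO vs WT, 46 were still called with DESeq2's size factors, without the filter and with the replicate block, 45 without marked doublets, 42 with at least 3000 UMIs, 39 with DESeq2, 33 of 43 tested with at least 4 markers, 34 of 44 tested with both Isl1 and Ebf1, 3 with the prefix covariate, and 26 to 46 with 1 embryo left out. The replicate block moved KO vs WT to 570 calls. Same-numbered embryos did not deviate together (r from -0.270 to 0.138). Whether they shared a litter or a run was not given, and these correlations cannot decide it. Depth limits genes under a few CPM, since the members of an embryo held 1302326 to 2522635 UMIs.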

Other observations

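Dlk1 and Peg10, both imprinted and chosen here after their values were seen, rose in KO members, while the imprinted gene Cdkn1c did not pass (log2 fold change 0.46, edgeR adjusted p = 0.246). Dlk1, a Notch-like ligand expressed from the paternal allele, was at 18.7, 69.2 and 36.2 CPM in WT1 to WT3, 45.8, 58.2, 51.9 and 52.4 in Het1 to Het4, and 87.9, 111 and 92.7 in KO1 to KO3. The KO embryos lay above all others and Het lay within the range of WT. The log2 fold change of Dlk1 was 1.21 ± 0.25 in KO vs WT (SE; edgeR adjusted p = 0.0101), and the effect in members exceeded that in Six3 Sp9 cells by 2.51 ± 0.35 (adjusted p = 0.000271). Peg10, a retrotransposon-derived imprinted gene, was at 89.2, 78.6 and 63.9 CPM in WT, 80.9, 112, 98.1 and 147 in Het and 143, 146 and 176 in KO, where Het4 lay among the KO embryos. Its log2 fold change in KO vs WT was 1.00 ± 0.17 (adjusted p = 0.00273), and the difference from Six3 Sp9 cells was 1.34 ± 0.29 (adjusted p = 0.039).

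Also chosen after their values were seen, Tle4 (a Groucho corepressor), Vcan (the proteoglycan versican) and Dlgap1 (a postsynaptic scaffold) separated KO from WT. Tle4 was at 124 to 135 CPM in WT embryos, 123 to 163 in Het embryos and 167 to 202 in KO embryos, with a log2 fold change of 0.55 ± 0.11 in members (adjusted p = 0.00821) and -0.95 ± 0.09 in Six3 Sp9 cells (adjusted p = 7.72e-07). Vcan was at 132 to 174, 132 to 205 and 255 to 302 CPM in WT, Het and KO (log2 fold change 0.88 ± 0.15, adjusted p = 0.0028). Dlgap1 was at 53.4 to 77.6, 23.7 to 49.6 and 18 to 22.8 CPM (log2 fold change -1.65 ± 0.22, adjusted p = 0.000395), and its 3 groups did not overlap.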
